A study of Mus musculus with 2 samples.

Results

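The homeostatic microglia genes are 7 genes of the resting microglial program, taken by symbol from the deposited feature list: *P2ry12*, *P2ry13*, *Tmem119*, *Cx3cr1*, *Sall1*, *Gpr34* and *Olfml3*. They are 7 of 32285 annotated genes, and all 7 had UMIs (unique molecular identifiers, each standing for a captured transcript) in the kept cells. They were read in 2 single-cell libraries of optic nerve, C-ON and FMC_new, both labelled NF1-OPG. The mice, called *Nf1*OPG, carry 1 mutant and 1 floxed copy of *Nf1* (flox/mut) with GFAP-Cre on C57BL/6. They develop low-grade optic glioma and were taken at 12 weeks of age. The sample title of C-ON carries the word "control" although its genotype is that of FMC_new, so the libraries were read as 2 libraries of the same genotype. The labels describe suspensions made from pools of 10 mice, whereas the study counts each library as an individual tumor. *Nf1* is deleted in these mice where the GFAP promoter drives Cre. No tumor-free optic nerve was analysed here, so the levels below have no tumor-free comparison. The libraries also held pituitary endocrine-like cells, most of them in FMC_new.

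Microglia are the resident macrophages of the central nervous system parenchyma. They are held in their surveying state by signals from neighbouring cells, among them TGF-beta, CSF1 receptor ligands and the neuronal chemokine CX3CL1. *P2ry12* and *P2ry13* encode G protein-coupled receptors for ADP, and *P2ry12* steers microglial processes towards injured cells. *Cx3cr1* encodes the receptor of CX3CL1, *Gpr34* a receptor for lysophosphatidylserine, *Tmem119* a transmembrane protein widely used as a microglial marker, *Sall1* a zinc finger transcription factor of microglial identity, and *Olfml3* a secreted olfactomedin-like glycoprotein.

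In the GRCm38 annotation, *P2ry12* (ENSMUSG00000036353, chr3:59216272-59262871) and *P2ry13* (ENSMUSG00000036362, chr3:59207892-59210882) are neighbours on the minus strand, 5389 bases apart, and both lie inside *Med12l* on the opposite strand. *Olfml3* (ENSMUSG00000027848, chr3:103722222-103738001), *Tmem119* (ENSMUSG00000054675, chr5:113793729-113800516), *Sall1* (ENSMUSG00000031665, chr8:89027235-89044162) and *Cx3cr1* (ENSMUSG00000052336, chr9:119901616-120069879) also lie on the minus strand. *Gpr34* (ENSMUSG00000040229, chrX:13632089-13640858) lies on the plus strand, inside *Cask*, which is on the minus strand. The span of *Cx3cr1* contains *Gorasp1*, *Csrnp1* and *Xirp1* on its own strand. How reads in such overlaps were assigned was not tested. *Csrnp1* was the most abundant of these overlapping genes in microglia-like cells, at 147 CPM (UMIs of a gene per 1000000 UMIs of the cells summed).

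RefSeq (GRCm38.p6) gave start sites for 5 of the 7 genes, and not for *Tmem119* and *Gpr34*. The promoters of 4 genes with a single listed start site are shown, those of the neighbours *P2ry12* and *P2ry13*, whose levels ran most alike, and those of *Cx3cr1* and *Olfml3*. Each is the 250 bases before the start, read 5′ to 3′ on the minus strand, at chr3:59262986-59263235, chr3:59210883-59211132, chr9:120068297-120068546 and chr3:103738002-103738251. Capitals mark AGGAAG or its reverse complement CTTCCT, a core bound by the macrophage factor PU.1 and other ETS factors.
P2ry12: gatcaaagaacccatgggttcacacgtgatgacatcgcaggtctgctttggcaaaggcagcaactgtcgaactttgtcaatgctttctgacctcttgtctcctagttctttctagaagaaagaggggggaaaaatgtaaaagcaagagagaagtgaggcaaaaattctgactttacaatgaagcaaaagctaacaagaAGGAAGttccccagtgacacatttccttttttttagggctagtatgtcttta
P2ry13: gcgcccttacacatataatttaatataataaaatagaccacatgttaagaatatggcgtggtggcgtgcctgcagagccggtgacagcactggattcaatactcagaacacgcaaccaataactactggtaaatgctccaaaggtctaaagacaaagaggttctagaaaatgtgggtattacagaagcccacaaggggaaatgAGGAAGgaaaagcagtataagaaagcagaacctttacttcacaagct
Cx3cr1: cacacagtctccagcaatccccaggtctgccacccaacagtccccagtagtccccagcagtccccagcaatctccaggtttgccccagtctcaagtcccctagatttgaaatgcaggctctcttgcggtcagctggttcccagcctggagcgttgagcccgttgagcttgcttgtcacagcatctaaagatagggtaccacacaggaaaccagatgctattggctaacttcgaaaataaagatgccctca
Olfml3: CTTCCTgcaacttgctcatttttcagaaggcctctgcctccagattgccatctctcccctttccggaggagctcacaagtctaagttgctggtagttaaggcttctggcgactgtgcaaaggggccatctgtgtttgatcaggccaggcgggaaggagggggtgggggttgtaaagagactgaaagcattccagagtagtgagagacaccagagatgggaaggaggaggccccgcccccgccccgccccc
The letters AGGAAG, on either strand, occurred once in the windows of *P2ry12*, *P2ry13* and *Olfml3*, in 1 of the 3 windows of *Sall1*, and not in that of *Cx3cr1*. They occurred in 29.5% of all 32851 promoter windows of the same length. The longer GAGGAAGT was in none of the members' windows and in 2.44% of all windows.

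After the filters 8834 cells of C-ON and 16818 of FMC_new were kept, with medians of 6810.5 and 4676 UMIs per cell. Cells were clustered without the 7 genes among the variable features and named from marker lists that do not hold them. Microglia-like clusters held 166 cells of C-ON (1.88% of kept cells, median 5154 UMIs) and 1340 of FMC_new (7.97%, median 4538.5 UMIs). Border macrophage-like clusters, led by markers of the meningeal and perivascular macrophages, held 80 and 111 cells. The macrophage marker *Mrc1* was at 37.3 and 15.1 CPM in microglia-like and 1870 and 1546 CPM in border macrophage-like cells. MHC-II macrophage-like cells numbered 26 and 210, classical monocyte-like cells 11 and 64, and type 2, type 1, migratory and plasmacytoid dendritic cell-like cells 158 and 720, 89 and 311, 25 and 70, and 3 and 48. No cluster met the criteria for nonclassical monocytes. The C-ON groups of under 30 cells carry the widest intervals. Of all kept barcodes 188 occurred in both libraries, among microglia-like cells 1. Pituitary endocrine-like cells numbered 19 in C-ON and 1129 in FMC_new (6.71% of kept cells). Whether phagocytes or dendritic cells of FMC_new came from pituitary tissue was not tested. The pituitary hormone transcript *Gh* had no UMI in the microglia-like cells of C-ON and stood at 3079 CPM in those of FMC_new. A scaling without hormone genes, among others, was run as an alternative. The part of *Gh* in the results was otherwise not tested.

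In each library the 7 genes were higher in microglia-like cells than in every other named class of phagocyte or dendritic cell, except for *P2ry13* in C-ON, where the 3 plasmacytoid dendritic cell-like cells gave 122 CPM from 2 UMIs. Intervals on levels are Poisson 95% intervals and cover counting error only. Their summed level was 3919 CPM (3798-4042) in C-ON and 3222 CPM (3180-3264) in FMC_new, a mean of 3570 ± 493 (SD, n = 2 libraries). It was 516 and 751 CPM in border macrophage-like cells (633 ± 166), 1212 and 982 CPM in MHC-II macrophage-like cells, 284 and 203 CPM in monocyte-like cells, and 59.7 and 73.9 CPM in all dendritic cell-like cells. For this sum the order microglia, MHC-II macrophage, border macrophage, monocyte and dendritic cell was the same in both libraries. *Cx3cr1* held 63.9% and 54.2% of the member UMIs in MHC-II macrophage-like cells. Between the macrophage classes *Cx3cr1* and *Tmem119* kept this order in both libraries, and *P2ry13* and *Gpr34* had the reverse. *P2ry12* and *Olfml3* changed order between the libraries. UMIs were counted at the 5′ end and not scaled to transcript length, so each gene is compared between cells and not with another gene. Classes were compared within each of the 2 libraries, no test was run and no p-value is given.

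**Figure D1:**
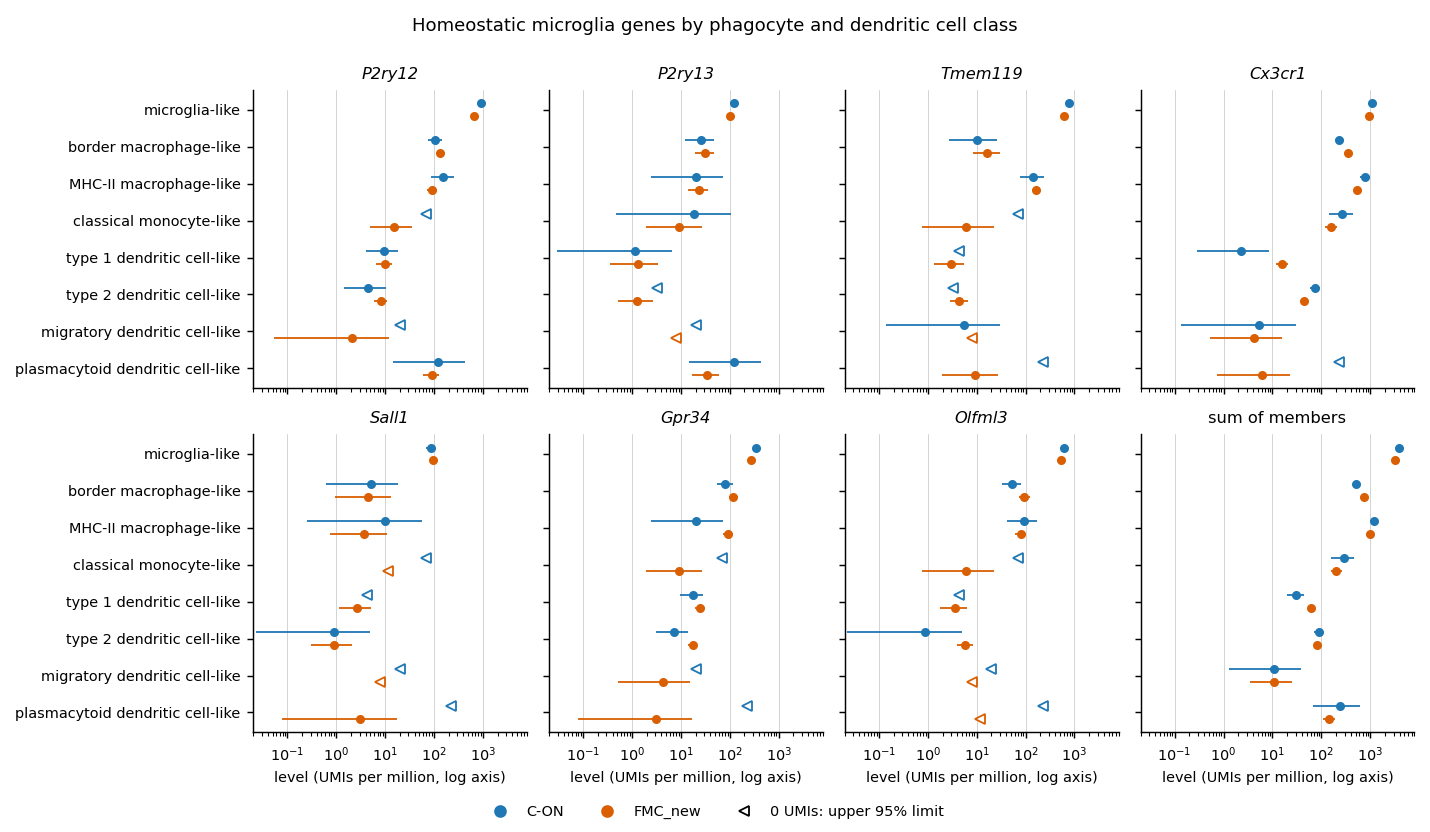
Level of each homeostatic microglia gene (CPM, log axis) in the classes of phagocytes and dendritic cells, with a point for each library and its Poisson 95% interval. The microglia-like points of both libraries are the highest, except that the C-ON point of *P2ry13* in plasmacytoid dendritic cell-like cells, which rests on 2 UMIs, lies level with them.

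The ADP receptors were at 897 CPM (840-957) and 650 CPM (632-669) for *P2ry12* and 120 CPM (99.5-143) and 102 CPM (94.3-109) for *P2ry13* in the microglia-like cells of C-ON and FMC_new. *P2ry12* was at 107 and 134 CPM in border macrophage-like cells and 153 and 91.2 CPM in MHC-II macrophage-like cells, which changed order between the libraries. *P2ry13* was at 25.4 and 31.7 CPM and at 20.4 and 23.4 CPM in the same classes. In monocyte-like cells *P2ry12* had no UMI in C-ON and 5 UMIs (15.4 CPM) in FMC_new. Plasmacytoid dendritic cell-like cells of FMC_new stood apart from the other dendritic classes, with 89.9 CPM of *P2ry12* (29 UMIs) and 34.1 CPM of *P2ry13* (11 UMIs). Microglia-like cells exceeded them 7.24-fold (5.03-10.8) for *P2ry12* and 2.98-fold (1.66-6.001) for *P2ry13*. The 3 such cells of C-ON gave 2 UMIs of each gene.

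The chemokine receptor gene *Cx3cr1* was shared with macrophages and monocytes. It was at 1084 CPM (1021-1150) and 931 CPM (908-953) in microglia-like, 774 and 532 CPM in MHC-II macrophage-like, and 234 and 350 CPM in border macrophage-like cells. In monocyte-like cells it was at 265 CPM (14 UMIs) and 157 CPM (51 UMIs) and made up 93.3% and 77.3% of the UMIs of the 7 genes. *Cx3cr1* also made up 84.9% and 53.7% of member UMIs in type 2 dendritic cell-like cells, at 74.3 and 44.1 CPM. In type 1 dendritic cell-like cells, by contrast, *Cx3cr1* was at 2.33 and 16.0 CPM, and *Gpr34* at 17.4 and 25.1 CPM held 57.7% and 41.0% of the member UMIs. *Gpr34* was at 9.36 and 9.13 CPM in T cell-like cells. Other lymphocytes carried more of it in FMC_new, with 29.3 (8 UMIs) and 44.7 CPM in B cell-like and 8.63 (4 UMIs) and 29.8 CPM in natural killer cell-like cells. Among lymphocytes *Cx3cr1* was at 59.0 and 88.3 CPM in a T cell-like cluster led by *Cd8a* and *Pdcd1*, against 23.8 and 34.7 CPM in all T cell-like cells.

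*Gpr34* stood at 340 CPM (305-377) and 278 CPM (265-290) in microglia-like cells and at 81.3 and 119 CPM in border macrophage-like cells. In MHC-II macrophage-like cells it was at 20.4 CPM, from 2 UMIs, in C-ON and at 92.4 CPM in FMC_new, so its place in the order there rests on FMC_new.

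*Tmem119* was high in microglia-like and low in border macrophage-like cells. It was at 788 CPM (735-845) and 625 CPM (606-643) in the former and at 10.2 CPM (4 UMIs) and 16.6 CPM (11 UMIs) in the latter. MHC-II macrophage-like cells carried 143 and 160 CPM of it. Fibroblast-like cells, which are no myeloid cells, carried 88.2 and 104 CPM of *Tmem119*. They also carried 123 and 78.9 CPM of *Olfml3*. *Olfml3* was at 604 CPM (557-653) and 543 CPM (525.5-560) in microglia-like, 91.6 and 78.9 CPM in MHC-II macrophage-like, and 53.4 and 94.95 CPM in border macrophage-like cells.

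The transcription factor gene *Sall1* was at 86.4 CPM (69.3-106) and 94.9 CPM (87.8-102) in microglia-like cells and rested on 1 to 3 UMIs in each library in both macrophage classes. It had no UMI in the monocyte-like cells of either library. *Sall1* was also found in cells of the macroglial lineage: oligodendrocyte-like cells carried 44.5 and 38.01 CPM of it, in 28.5% and 23.0% of cells, and it made up 83.5% and 69.8% of their member UMIs. In astrocyte-like cells of FMC_new it was at 19.9 CPM (17 UMIs). *P2ry12*, in the same oligodendrocyte-like cells, was at 5.34 and 8.10 CPM.

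In cells thinned to 1000 UMIs each, which removes differences in depth and left out 28 microglia-like cells, *P2ry12* was seen in 54.0% and 43.7% of microglia-like cells of C-ON and FMC_new, *Tmem119* in 52.2% and 43.4%, *Cx3cr1* in 62.1% and 50.1%, *Olfml3* in 45.3% and 39.3%, *Gpr34* in 28.0% and 21.6%, *P2ry13* in 11.8% and 10.8% and *Sall1* in 6.21% and 8.50%. The unthinned shares were higher, 87.3% and 75.7% for *P2ry12*. At least 1 of the 7 genes was seen in 91.3% and 88.4% of microglia-like cells. The same share was 5.17% and 4.97% in T cell-like cells (unthinned medians 3199 and 3004 UMIs), a class that should lack most of them, where *P2ry12* was seen in 0.422% and 0.424%. It was 33.8% and 42.3% in border macrophage-like cells, above that level, and 2.25% and 4.82% in type 1 dendritic cell-like cells, below it. *Cx3cr1* made up 53.9% and 62.1% of the member UMIs of T cell-like cells, so their share does not measure background alone.

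At least 2 of the 7 genes were found together in 74.5% and 64.5% of thinned microglia-like cells, with medians of 3 and 2 genes per cell. The same held for 10.0% and 14.4% of border macrophage-like cells and 23.1% and 15.1% of MHC-II macrophage-like cells. It held for 0 and 0.418% of type 2 dendritic cell-like cells and for 0 and 0.0908% of T cell-like cells. At least 4 genes were found in 27.3% and 17.8% of microglia-like cells. All 7 were found in 2 cells, both of FMC_new.

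**Figure D2:**
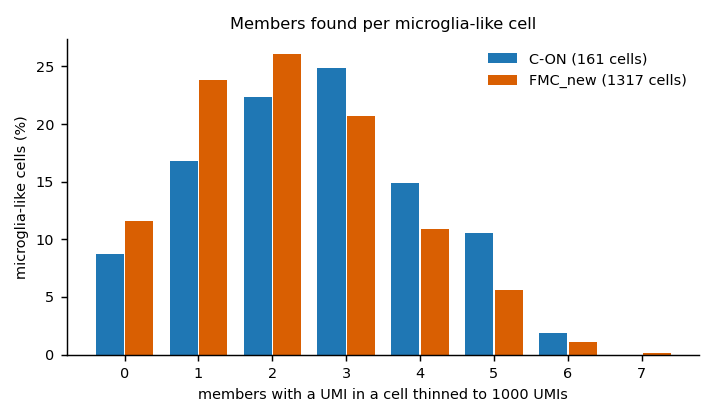
Share of microglia-like cells (%) by the number of homeostatic microglia genes with a UMI after thinning to 1000 UMIs, for 161 cells of C-ON and 1317 of FMC_new. The C-ON bars peak at 3 genes and the FMC_new bars at 2.

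Microglia-like and border macrophage-like cells were then compared over all genes at or above 5 CPM in either class, calling a gene that differed at least 4-fold in the same direction in each library. Of 10414 genes 130 (1.25%) were called higher in microglia-like cells, and 4 of the 7 members were among them, *P2ry12*, *Tmem119*, *Sall1* and *Olfml3*. In the lower direction 238 genes (2.29%) were called, with no member. *Tmem119* was 77.6-fold (30.2-285) and 37.7-fold (21.04-75.5) higher in C-ON and FMC_new. *Sall1* was 16.999-fold (4.57-143) and 20.98-fold (7.15-102) higher, from 2 and 3 UMIs in border macrophage-like cells. *P2ry12* was 8.41-fold (6.17-11.7) and 4.85-fold (3.93-6.05) higher and *Olfml3* 11.3-fold (7.34-18.4) and 5.71-fold (4.46-7.45). The 3 others passed 4-fold in C-ON and not in FMC_new, where *P2ry13* was 3.21-fold (2.08-5.22), *Cx3cr1* 2.66-fold (2.33-3.05) and *Gpr34* 2.33-fold higher. The median log2 ratio of the 7 genes was 3.07 and 2.28, beside -0.03 and -0.07 for all genes tested.

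**Figure D3:**
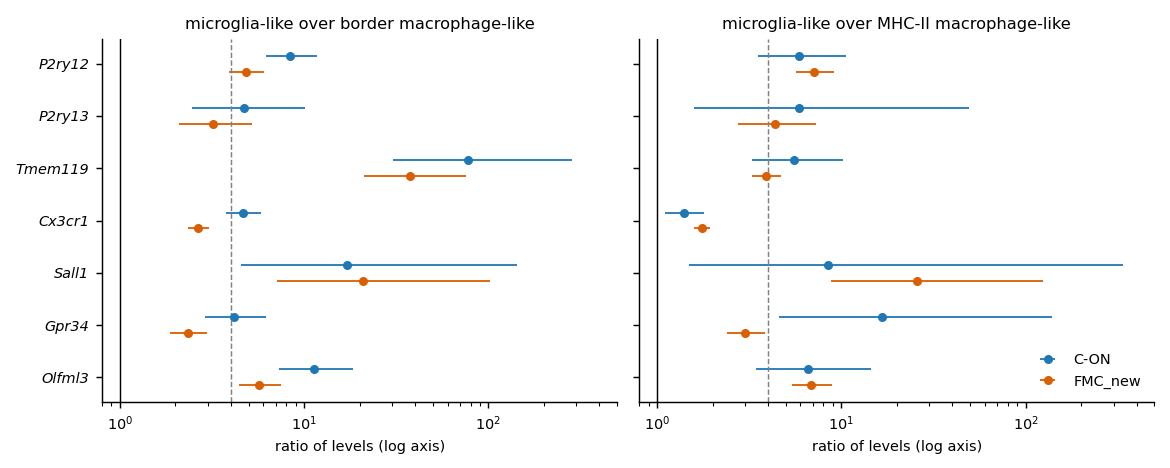
Ratio of the level of each gene in microglia-like cells to that in border macrophage-like and MHC-II macrophage-like cells (log axis), with 95% counting intervals for each library. The solid line is equality and the dashed line 4-fold. *Tmem119* and *Sall1* lie farthest from equality against border macrophage-like cells and *Cx3cr1* closest to it against MHC-II macrophage-like cells.

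Against MHC-II macrophage-like cells the higher direction alone was counted. Of 10470 genes 27 (0.258%) were called higher in microglia-like cells, 2 of them members, *P2ry12* (5.88-fold and 7.13-fold) and *Olfml3* (6.59-fold and 6.88-fold). *Cx3cr1* differed by 1.40-fold (1.11-1.79) and 1.75-fold (1.59-1.93). *Tmem119* was 5.53-fold and 3.90-fold higher, just outside the fold used in FMC_new. *Sall1* (8.49-fold and 25.7-fold) and *P2ry13* (5.88-fold and 4.34-fold) passed 4-fold in both libraries but were not called. In the MHC-II macrophage-like cells of C-ON they had 1 and 2 UMIs, and the calls raised these to a floor of 3 counts. That floor is 30.5 CPM in these 26 cells, so genes of low level could not be called higher. The share of 0.258% is thus no like background for members of high level. Against type 1 dendritic cell-like cells all 7 members were called higher among 5.83% of genes tested, and against type 2 among 5.43%. Against the monocyte-like cells of FMC_new all 7 were among the 2.74% called, with *Cx3cr1* the least different at 5.93-fold. The 11 monocyte-like cells of C-ON gave 4.09-fold for *Cx3cr1*, and bounds of at least 15.8-fold for *P2ry12* and 13.9-fold for *Tmem119*, neither of which had a UMI there.

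Other genes of the microglial program were examined by list in the comparison with border macrophage-like cells. Of 18 other microglia identity genes 8 were called higher and none lower, among them *Sparc*, *Selplg* and *Cst3*, with median log2 ratios of 1.47 and 1.23. Of those 18 genes 7 served to name the microglia-like clusters, so their count is no independent result. Of 12 transcription factors 1 was called higher, the *Sall1* relative *Sall3*, at 34.4 and 43.7 against 2.54 and 6.03 CPM. Of 8 purine receptors and nucleotide enzymes tested 1 was called higher, the adenosine receptor *Adora3*, at 60.9 and 63.9 against 0 and 1.51 CPM, whereas the UDP receptor *P2ry6* was at 233 and 229 against 241 and 244 CPM. Of 10 genes of the TGF-beta axis 1 was called higher, the inhibitory *Smad7*, at 172 and 160 against 38.1 and 16.6 CPM. The receptor *Tgfbr1* was at 684 and 544 against 125 and 149 CPM.

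Among ligands of microglial receptors *Csf1* was called higher, 1 of 2 tested. The 35 and 20 neuron-like cells, a cluster led by *Avp*, carried *Cx3cl1*, which encodes the ligand of CX3CR1, at 94.4 and 162 CPM. Whether these cells came from the nerve was not tested. The CSF1 receptor gene *Csf1r* did not separate the classes (1611 and 1315 against 1583 and 1266 CPM). Of 19 disease-associated microglia genes 6 were called higher in microglia-like cells, *Cst7*, *Itgax*, *Spp1*, *Cd9*, *Csf1* and *Ctsd*. None of 10 immediate early genes, which rise when tissue is dissociated, was called in either direction. Of 10 transcripts abundant in other cells of the nerve or the pituitary, a check on free RNA, 1 was called lower in microglia-like cells, *Ptgds*.

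Within microglia-like cells the 7 genes were not at a single level. The reclustering gave 5 microglia-like clusters, of which P7 and P1 are compared in detail. The pair was chosen after the levels were seen. Cluster P7, led by *Tcim*, *Sox4* and *Sparc*, carried a summed level of 5987 CPM in C-ON (69 cells) and 5195 CPM in FMC_new (230 cells). Cluster P1, led by *Cxcl13*, *Siglecf*, *Lag3* and *Cst7*, carried 2562 CPM (57 cells) and 2847 CPM (493 cells). Median UMIs per cell were 4229 and 5154 in P7 and 8568 and 7738 in P1, and the part of depth was not tested. The other 3 clusters were P15 (led by *Atp8a2*, *Nav2* and *Csmd3*) at 5605 and 4604 CPM, P19 (led by the interferon-response genes *Ifit3* and *Rsad2*) at 2894 and 2582 CPM, and P2 at 2641 and 1923 CPM. P2 had few UMIs per cell, with medians of 1346 and 1835, and carried *Gh* at 8159 CPM in FMC_new. Its microglial name rested on 4 markers against 3 of another class.

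**Figure D4:**
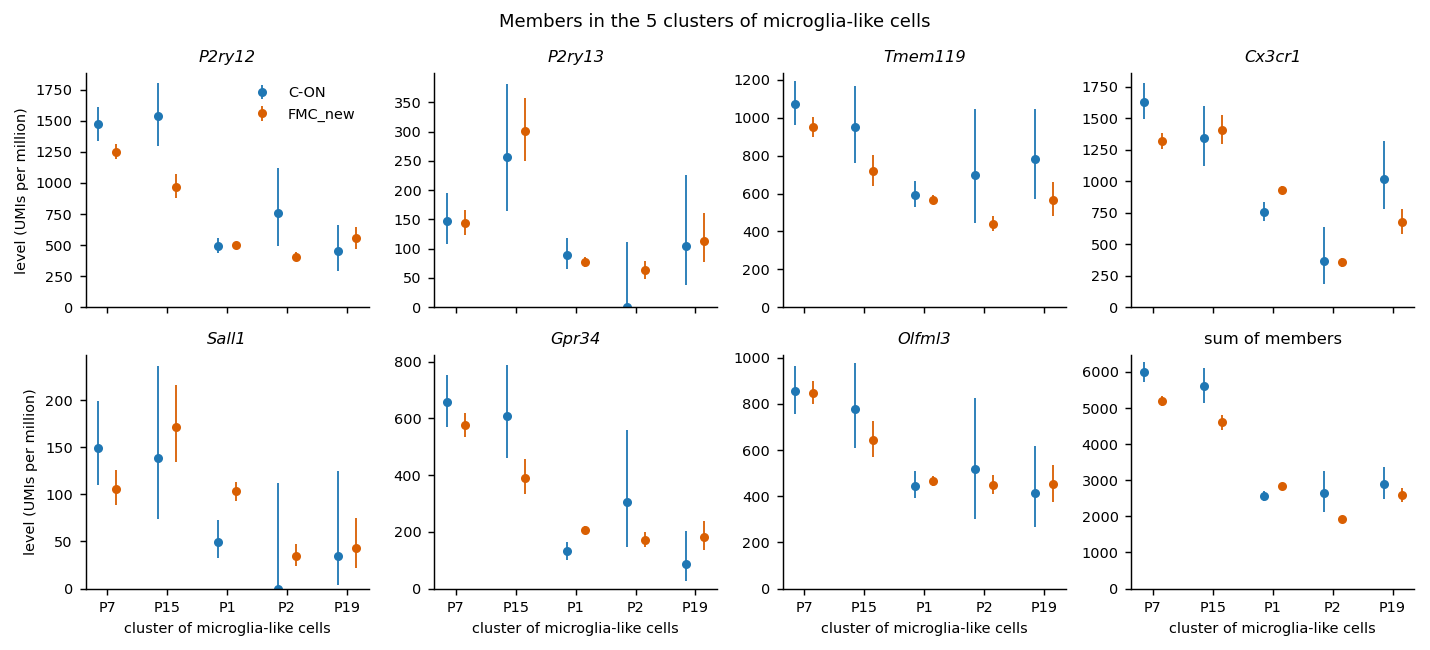
Level of each homeostatic microglia gene (CPM) in the microglia-like clusters, with a point for each library and its Poisson 95% interval. P7 and P15 lie above P1, P2 and P19 for *P2ry12*, *Gpr34* and *Olfml3* in both libraries.

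Between P1 and P7, genes were called that differed at least 1.5-fold in the same direction in each library. Of 10347 genes 1189 (11.5%) were called lower in P1, and 5 of the 7 members were among them, *P2ry12*, *P2ry13*, *Tmem119*, *Gpr34* and *Olfml3*. Of all genes 409 (3.95%) were called higher in P1, with no member. *Gpr34* fell furthest, to 0.199 (0.149-0.263) and 0.359 (0.324-0.397) of its level in P7, followed by *P2ry12* at 0.336 (0.287-0.392) and 0.399 (0.374-0.427). *Cx3cr1* was at 0.465 and 0.702 of its P7 level. *Sall1* was at 0.334 (0.198-0.550) in C-ON but 0.973 (0.7998-1.19) in FMC_new, so the libraries differed for this gene. The median log2 ratio of the 7 genes was -1.10 and -0.86, beside -0.31 and -0.24 for all genes tested. Because the pair was chosen with the members' levels known, their count and median are descriptions and no result against all genes.

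In the same comparison 13 of 18 other identity genes were called lower in P1, among them *Siglech*, *Fcrls*, *Selplg* and *Crybb1*, and none higher. Of 19 disease-associated microglia genes 12 were called higher in P1, among them *Lpl*, *Axl*, *Spp1* and *Lgals3*, and none lower. Because P1 and P7 were set apart by clustering these same cells, the counts of both lists are descriptions. P7 was also the microglia-like cluster that met the most naming markers, 9 against 6 in P1. Of the 18 identity genes 7 were such markers, *Siglech*, *Fcrls* and *Crybb1* among them, so their lower level in P1 is no independent result. Of the transcription factors 2 of 12 were called lower (*Mef2c*, *Jun*), and of the purine genes 2 of 8 higher (*P2ry14*, *Adora1*). Neither direction held a called gene of the TGF-beta axis. Of the immediate early genes *Nr4a1* was called higher and *Jun* lower, *Csf1* was the ligand gene called higher, and of the free RNA transcripts *Igha* and *Mobp* were lower in P1.

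In P15 *P2ry13* was higher than in P7 in both libraries, at 1.74 (1.02-2.92) and 2.09 (1.65-2.63) of its P7 level. *Sall1* was at 1.62 (1.20-2.17) in FMC_new and 0.925 (0.459-1.74) in C-ON. The other 5 genes lay between 0.678 and 1.06 of their P7 level. In FMC_new *P2ry12* (0.775), *Tmem119* (0.758), *Gpr34* (0.678) and *Olfml3* (0.761) had intervals below equality and *Cx3cr1* did not. In C-ON, where P15 held 15 cells, the intervals of all 5 included equality.

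Microglia-like cells were also divided by a UMI of *Cst7* or *Lpl*, 2 genes of disease-associated microglia, after thinning. Such a UMI was found in 22 of 161 cells of C-ON (13.7%) and 222 of 1317 of FMC_new (16.9%). The summed level of the 7 genes in cells with it was 0.630 (0.475-0.822) and 0.652 (0.593-0.717) of that in cells without it. Of 10090 genes 41 (0.406%) were called at least 1.5-fold lower in both libraries, 2 of them members, *P2ry12* and *Tmem119*. Another 384 (3.81%) were called higher, none of them a member. Calls raised the lower side to 3 counts, which is 136 CPM in the 22 cells of C-ON. Genes of low level, *Sall1* and *P2ry13* among them, could therefore not be called lower. The share called lower is thus no like background for the members or for the share called higher. *P2ry12* was at 0.218 (5 against 145 UMIs) and 0.531 of its level in cells without such a UMI, and *Tmem119* at 0.428 and 0.561. *Cx3cr1* differed least in FMC_new, at 0.808. *Sall1*, with 4 and 7 UMIs in C-ON, was at 3.61 (0.775-14.2) there and at 0.724 (0.3997-1.23) in FMC_new. Within P1 alone the summed ratio was 0.685 (0.587-0.796) in FMC_new and 0.954 (0.619-1.43) in C-ON. In FMC_new it was 0.750 (0.560-0.986) within P7, 0.598 (0.412-0.844) within P15, 0.867 (0.736-1.02) within P2 and 0.983 (0.557-1.65) within P19. In C-ON the other clusters held 1 to 3 cells with such a UMI, and within P7 the ratio was 1.32 (0.817-2.03). By list, 5 disease-associated genes (*Cst7*, *Lpl*, *Spp1*, *Csf1* and *Cd63*) were higher, the first pair by construction, and the identity genes *Siglech* and *Rhob* and the immediate early factor *Jun* were lower.

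**Figure D5:**
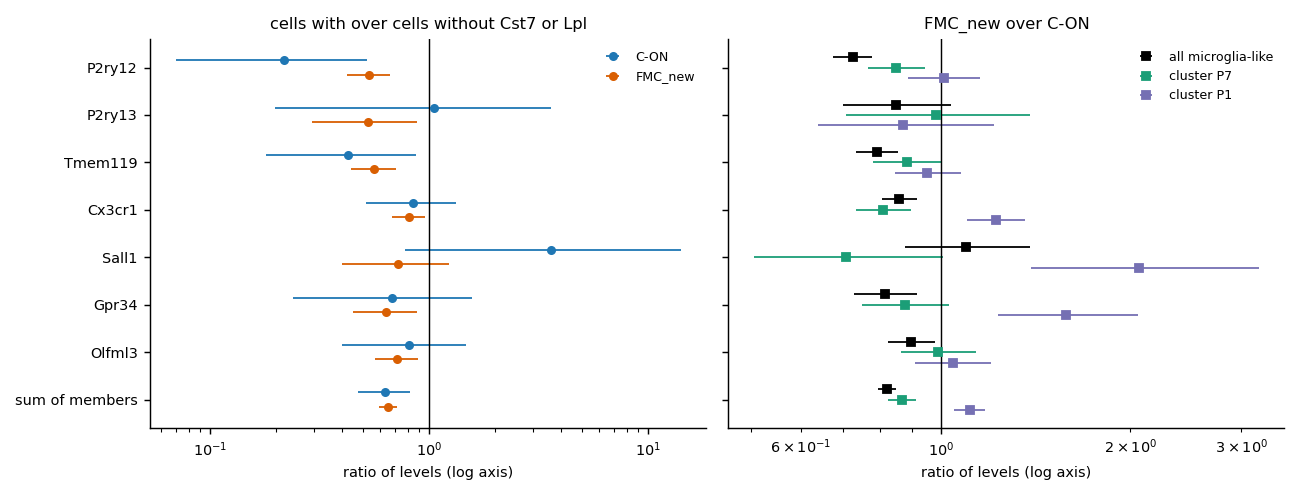
Ratio of the level of each gene within microglia-like cells (log axis), with 95% counting intervals. One panel shows cells with over without a UMI of *Cst7* or *Lpl*, with a point for each library. The other shows FMC_new over C-ON, for all microglia-like cells and for clusters P7 and P1. In the first comparison *P2ry12* and *Tmem119* lie below equality in both libraries.

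Between the libraries, members were lower in FMC_new over all microglia-like cells, at 0.822 (0.795-0.851) for the sum. *P2ry12* was at 0.725 (0.675-0.779), *Tmem119* at 0.792 (0.735-0.855), *Gpr34* at 0.817 (0.728-0.918), *Cx3cr1* at 0.859 (0.805-0.916) and *Olfml3* at 0.899 (0.825-0.980) of the C-ON level. The intervals of *P2ry13*, 0.849 (0.700-1.04), and *Sall1*, 1.10 (0.878-1.39), included equality. None of the 7 passed a 1.5-fold change, against 14.9% of 10141 genes called lower and 8.2% called higher in FMC_new. The intervals cover counting error, and with 1 library on each side the spread between libraries is not known.

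The makeup of the microglia-like cells differed between the libraries at the same time. P7 made up 41.6% of them in C-ON and 17.2% in FMC_new, P2 10.8% and 37.1%, and P1 34.3% and 36.8%. Within P7 the summed ratio was 0.868 (0.824-0.914), and no member was among the 19.4% of genes called lower or the 10% called higher. Within P1 it was 1.11 (1.05-1.18), with *Sall1* at 2.07 (1.39-3.201) and *Gpr34* at 1.58 (1.23-2.05) in FMC_new, 2 members among the 11.9% of genes called higher and none among the 16.6% lower. The ratio over all microglia-like cells was 0.941 with the clusters weighted by their share of UMIs in C-ON, not by the cell shares above. That calculation was chosen after seeing the data.

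The genes whose levels ran most alike were sought over 68 units, each a cluster of at least 50 cells in a library, by the correlation of log levels. The units share libraries and depth, and the values are descriptions. *P2ry12* ran most like *P2ry13* (Pearson's r = 0.923), followed by *Slc11a1* (0.908). *Tmem119* and *Olfml3* were most like each other (0.917), and *P2ry13* was also close to *Trem2* (0.914). *Cx3cr1* was most like *Csf1r* (0.940), *Fcgr3* (0.931) and *C1qb* (0.921), and *Gpr34* most like *Abi3* (0.861). *Sall1* was most like *Slc1a3* (0.843), a glutamate transporter gene of astrocytes, and its r with the other members was 0.138 to 0.478, whereas the other pairs of members had 0.713 to 0.923.

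A cluster of 723 cells, led by *Ccl7* and *Klra2*, met no class's naming criteria. Its summed level was 763 CPM in C-ON (204 cells) and 768 CPM in FMC_new (519 cells). *Cx3cr1* was at 406 and 446 CPM, *Tmem119* at 93.7 and 87.0 CPM and *P2ry12* at 75.6 and 65.5 CPM, all below their levels in MHC-II macrophage-like cells. *Sall1* had no UMI in C-ON and 4 UMIs in FMC_new. Among the other cells a tumor-like cluster led by *Neu4* and *Gpr17* had a summed level of 515 CPM in FMC_new (489 cells) and 224 CPM in C-ON (28 cells). *Cx3cr1* was at 54.7 and 165 CPM there in C-ON and FMC_new, in 18.8% of the FMC_new cells, and the part of doublets and free RNA was not tested.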

How the data were processed

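Dissociated optic nerve cells were sequenced by the droplet-based 5′ method. Per the submitters' processing notes, the authors made the deposited UMI counts with Cell Ranger 7.2.0 on mm10, and used Seurat. The paper's methods name an earlier Cell Ranger version. Counts are whole UMIs per gene and cell, with no normalization. Cells with 500 to 5000 genes, 500 to 20000 UMIs and under 5% mitochondrial UMIs were kept (81.5% and 78.8% of 10845 and 21341 barcodes, which held 85101211 and 129113325 UMIs). Of all barcodes, 296 occurred in both libraries. The 2 libraries were integrated and clustered with Seurat 5.3.0 in R 4.3.3 (log-normalization, 2000 variable features, canonical correlation integration, 30 components, resolution 0.8), and 5309 phagocytes, dendritic cells and neutrophils were clustered again into 22 clusters. A cluster took a name from at least 3 markers of a list, each in at least 20% of its cells and at least 2-fold above the mean of clusters. A lead of fewer than 2 markers over the next list was accepted only where at least 2 of the list's markers were among the 10 leading genes, as for P2, and clusters led by another lineage stayed unnamed. A cluster led by *Mertk* and *Tbxas1* was left unnamed after its genes were seen. Scrublet marked 1 and 0 cells, so doublets were not removed.

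Counts were summed per class and library and scaled to CPM with Python 3.11.15 and SciPy 1.17.1, with exact Poisson intervals for levels, exact conditional intervals for ratios and Clopper-Pearson intervals for shares (95%). A bound against 0 UMIs used a floor of 3 counts in the class of that library. Calls were of fold, without a test, and a lower side below the same floor was first raised to it. A gene with few UMIs could therefore pass the fold and not be called. The calling step was checked on simulated counts. All 7 genes were named in every class, and of the other lists those called. *Clec7a* was not analysed here. The 7 genes and all lists (other microglia identity genes, transcription factors, purine genes, TGF-beta axis, ligands, disease-associated genes, immediate early genes, free RNA) were chosen with earlier results of these data known. Alternatives were the resolution, the variable features, integration, doublets, scaling and the weight of cells.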

Additional observations from a re-analysis of the deposited data

How the results depend on the processing

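With either library alone, the summed level of the 7 genes ranged from 3222 to 3919 CPM in microglia-like, 516 to 751 in border macrophage-like, 203 to 284 in monocyte-like and 59.7 to 73.9 in dendritic cell-like cells, and the log2 ratio of microglia-like cells with against without *Cst7* or *Lpl* from -0.67 to -0.62 (-0.64 as the mean). That ratio was -0.53 at clustering resolution 0.4, and the dendritic level, 66.8 CPM as reported, was 154 CPM at resolution 1.5. The causes were not tested. The ratio of FMC_new to C-ON in microglia-like cells, 0.822 as reported, was 0.874 with the 7 genes kept among the variable features. It was 0.854 without integration and 0.726 as a mean of per-cell CPM. In alternatives chosen after seeing the data, it was 0.872 without the low-UMI cluster P2 and 0.941 with clusters weighted by their UMIs in C-ON. It stayed below 1 in all of these. The microglia-like class itself kept 65.3% of its 1506 cells with the 7 genes kept among the variable features and 65.3% without integration, 95.0% at resolution 1.5 and 100% at resolution 0.4. At resolution 0.4 the border macrophage-like class grew to 309 and 845 cells. Leaving out the cells with the highest 10% of Scrublet scores, added because Scrublet's own calls were too few to run, moved 6 values beyond their spread or interval and left 50. Resolution 1.5 moved 20 and left 43, no integration 15 and 48, resolution 0.4 13 and 43, members kept among the variable features 11 and 52, and per-cell CPM 11 and 52. Scaling without mitochondrial, haemoglobin, immunoglobulin and hormone genes moved 5 and left 58. Per-cell CPM was not run for the *Cst7* or *Lpl* division, whose cells have equal depth. Without the filter at 5 CPM the genes called higher than in border macrophage-like cells were 0.692% of 18787. No paired analysis was possible because the results come from no test: classes and clusters were compared within each library, and the values of both libraries are given. Depth limits *Sall1* and *P2ry13* most, and every statement on the 11 monocyte-like and 3 plasmacytoid dendritic cell-like cells of C-ON.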
